A study of Mus musculus with 10 samples.

Results

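Described here are 34 genes of fibroblasts and the extracellular matrix in 10 bulk RNA libraries that were labelled as CD8+ T cells sorted from mouse tumours. The genes were listed by symbol, and those with at least 1 TPM (transcripts per total of a library scaled to a fixed sum, corrected for gene length) in at least 5 libraries were kept, which left 33 of the 34. They are 33 of 13930 genes of the table that met this minimum, out of 55487 gene rows. Fbln1, encoding fibulin 1, was the member left out.

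The series concerns a serine of Ptpn22, the gene of the tyrosine phosphatase Pep. WT mice carry the normal gene and S452A mice carry alanine in place of that serine. Both groups were 8 weeks old when MC38 cells, a mouse colon carcinoma line, were injected, and tumours were collected after 18 days, digested with collagenase and sorted. There were 5 libraries per genotype, 1 per mouse, numbered by mouse in the labels, while strain and sex were not stated there. The series' design text writes S425A where the title and the labels write S452A.

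Fibroblasts build the connective tissue of a tumour. They secrete fibrillar collagens, which are folded in the endoplasmic reticulum with the help of dedicated chaperones, trimmed outside the cell and cross-linked by lysyl oxidases. Basement membranes, laid down by endothelial cells, pericytes and epithelia, are built on type IV collagen instead. Small leucine-rich proteoglycans, periostin, SPARC, fibulins and microfibril proteins attach to these networks. None of these genes marks CD8+ T cells, with the exception of Thy1, which mouse T cells carry on their surface as well as fibroblasts do.

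The libraries held few T cell transcripts. The 16 genes of a T cell list, Cd8a and Cd3e among them, summed to 22.6 to 163 TPM in WT and 23.5 to 191 TPM in S452A. Cd8a itself averaged 6.20 ± 5.49 TPM for WT against 6.50 ± 5.46 TPM for S452A (SD, n = 5), whereas 16 macrophage genes summed to 20814 to 28193 TPM in WT and 21808 to 27169.7 TPM in S452A. Of the other cell types, 20 endothelial genes summed to 43.1 to 57.1 TPM in WT and 30.4 to 57.1 TPM in S452A, and 17 pericyte and smooth muscle genes to 168 to 239.6 TPM in WT and 131 to 243 TPM in S452A. A list of 15 epithelial and carcinoma genes summed to 11.2 to 13.8 TPM in WT and 9.08 to 16.1 TPM in S452A, and 3 of them met the minimum. Cldn3 of that list and the fibroblast transcription factor gene Tcf21 were listed at 0 in all libraries, and 4 endothelial genes (Erg, Podxl, Tek and Tie1) and 4 pericyte or muscle genes (Abcc9, Kcnj8, Lmod1 and Myh11) stayed below 1 TPM. How deeply a library was sequenced is unknown from TPM alone. In such bulk libraries, fewer cells of a type and less RNA per cell cannot be told apart.

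Together the 34 genes took between 0.0361% and 0.122% of the TPM of a library. Their summed TPM was 749.6, 669, 1220.0, 869 and 772 in WT libraries 1 to 5 and 756, 969.6, 361, 623 and 518 in S452A libraries 1 to 5. The group means in TPM were 856 ± 216 for WT against 646 ± 232 for S452A (SD, n = 5), with a ratio of 1.33 between WT and S452A, and the ranges of the genotypes overlapped. WT library 3 was the highest and S452A library 3 the lowest of the 10. As a share of the library the means in percent were 0.0856 ± 0.0216 for WT against 0.0646 ± 0.0232 for S452A (SD, n = 5). The gap of -0.0210 percentage points, S452A minus WT, was smaller than the pooled SD of 0.0224, and no test was made of this sum. Without WT library 3 the gap was -0.0119, and without S452A library 3 it was -0.0139.

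**Figure D1:**
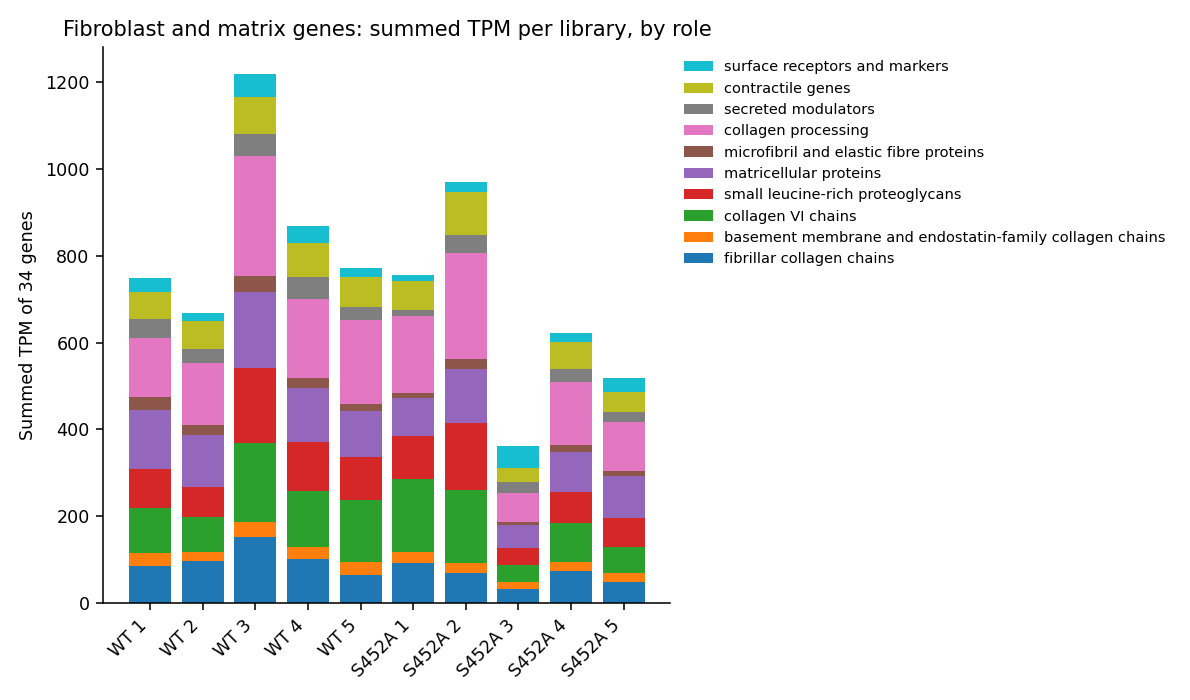
Summed TPM of the 34 genes in each library (bars, linear axis from 0), split into 10 roles by colour, for WT libraries 1 to 5 and S452A libraries 1 to 5. WT library 3 reaches 1219.9 TPM and S452A library 3 stops at 361 TPM, with the other libraries between 518 and 969.6 TPM.

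The libraries at both ends of this range were rich in T cell transcripts. WT library 3 and S452A library 3 had the highest sums of the T cell list, at 163 and 191 TPM. Their endothelial sums were 53.5 and 57.1 TPM, and the latter was the highest of the 10 libraries. Pericyte and smooth muscle genes summed to 239.6 and 131 TPM, the latter the lowest of the 10. Macrophage sums were 20814 and 24508 TPM. With the T cell list as a covariate the median genotype difference of the 33 tested members, described below, was -0.46, with the endothelial list it was -0.58, and with neither it was -0.46. These fits with a covariate are a description. The part of the T cell, endothelial, macrophage, pericyte and epithelial lists in the matrix result was not tested.

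Levels ran from 0.46 TPM for Fbln1 to 128 TPM for Serpinh1, averaged over the 10 libraries. The 6 highest members, Serpinh1, Sparc, Dcn, Cald1, Col6a1 and Col6a2, made up 45.6 to 65.2% of the summed TPM. In WT, 17 of the 34 members averaged at least 10 TPM. Of the 33 that met the minimum, 30 were at 1 TPM or more in all 10 libraries. The other 3 were Mfap4, Lum and Loxl1, which reached 1 TPM in all 5 WT libraries but in 3, 4 and 1 of the S452A libraries. These 3 thus met the minimum through more WT than S452A libraries. The members also varied more between mice than most genes did. Their median SD within a genotype was 0.49 on the log2(TPM + 1) scale, against 0.30 for all tested genes, and 82.1% of tested genes had a smaller SD than this median.

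**Figure D2:**
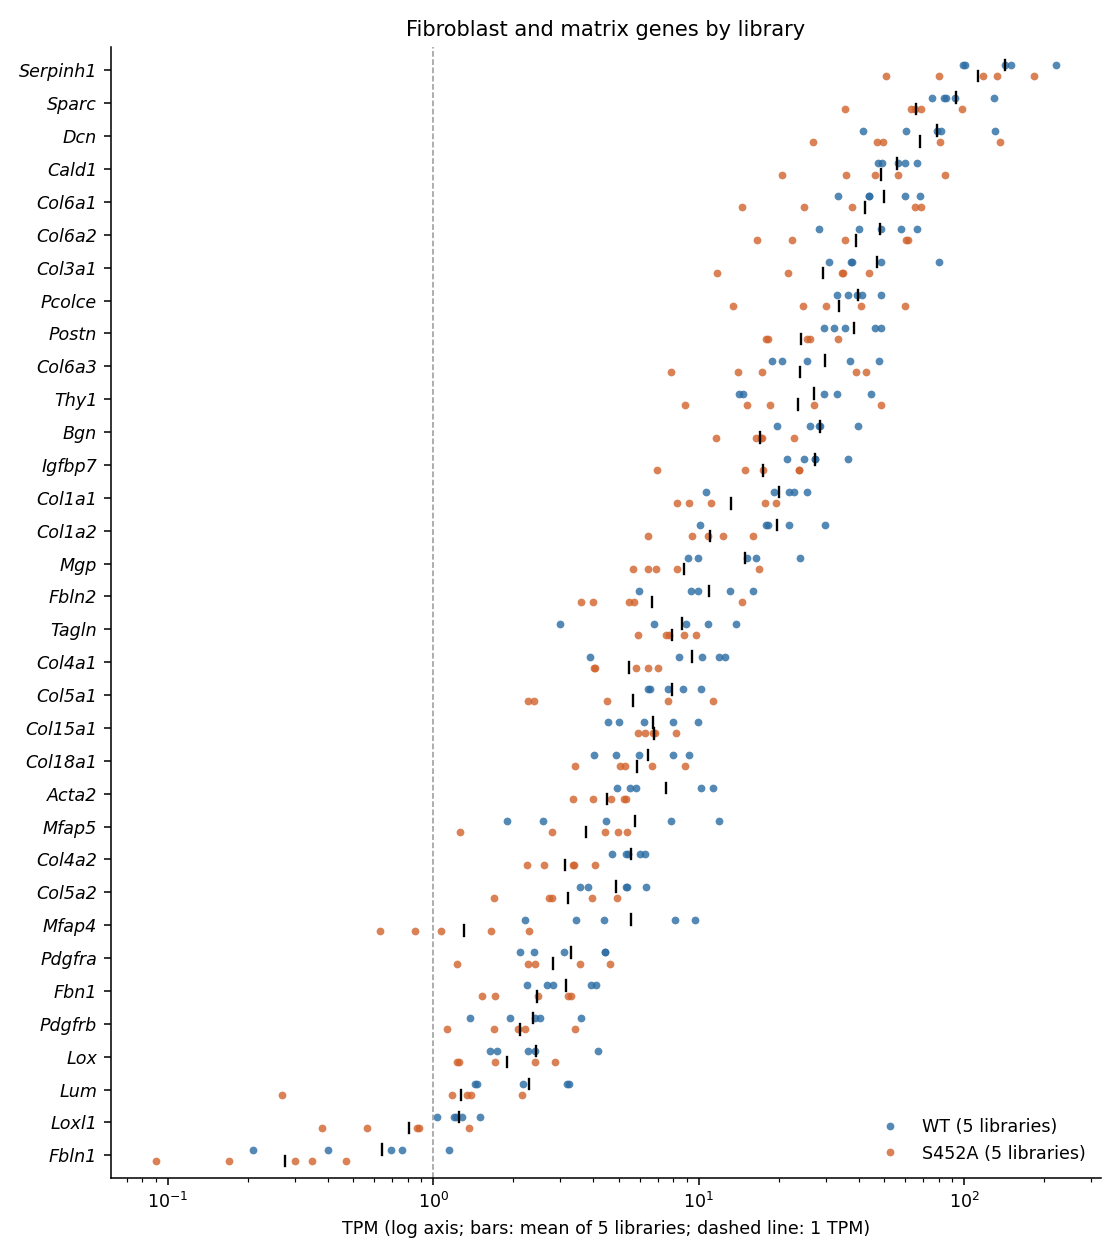
TPM of each of the 34 genes (log axis) in 5 WT libraries (blue) and 5 S452A libraries (orange), ordered by mean level, with the mean of each genotype as a short black bar and 1 TPM as a dashed line. The WT mean lies above the S452A mean for all genes except Col15a1, while the points of the genotypes overlap for all genes except Col4a2.

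Sequences upstream of the start sites of 5 members are shown for their core promoter motifs. They are 120 bases before a RefSeq start (GRCm38.p6, gene strand, 5′ to 3′) of each gene. Postn, Bgn and Igfbp7 were among the 8 members of smallest p between genotypes. The collagen chaperone Serpinh1 and the collagen VI chain Col6a3 had genotypes that overlapped widely. Each window is free of annotated exons. Capitals mark a TATA box (TATAAA) or a GC box (GGGCGG), searched on both strands, and overlapping matches were kept.
Postn, chr3:54360987-54361106, plus strand: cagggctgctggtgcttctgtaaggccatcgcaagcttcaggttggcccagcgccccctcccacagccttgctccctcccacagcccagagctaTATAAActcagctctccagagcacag
Bgn, chrX:73483481-73483600, plus strand: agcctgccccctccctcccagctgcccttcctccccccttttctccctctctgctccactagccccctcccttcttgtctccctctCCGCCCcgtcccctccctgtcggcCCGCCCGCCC
Igfbp7, chr5:77408046-77408165, minus strand: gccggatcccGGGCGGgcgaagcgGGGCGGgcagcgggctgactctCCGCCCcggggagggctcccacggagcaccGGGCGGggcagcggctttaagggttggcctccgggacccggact
Serpinh1, chr7:99353240-99353359, minus strand: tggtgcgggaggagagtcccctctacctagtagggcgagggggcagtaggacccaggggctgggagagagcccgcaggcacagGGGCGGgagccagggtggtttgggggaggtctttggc
Col6a3, chr1:90843972-90844091, minus strand: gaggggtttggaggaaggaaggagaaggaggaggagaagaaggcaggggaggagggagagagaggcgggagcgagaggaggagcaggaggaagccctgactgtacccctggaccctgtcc
In the window shown, Postn has a TATA box starting 26 bases before the start and no GC box. Igfbp7 has 4 GC boxes, Bgn has 3, Serpinh1 has 1, and the Col6a3 window holds neither motif. Postn has another RefSeq start, whose window (chr3:54359147-54359266) is also free of annotated exons and holds neither motif. The Postn window shown was picked because it holds a TATA box. A RefSeq promoter was matched for 22 of the 34 members. At least 1 window of 10 of these 22 genes held a GC box (45.5%), against 26.5% of all 32851 windows of this length. For the TATA box it was 2 of 22 (9.09%) against 6.34%, for the CCAAT box (CCAAT) 3 of 22 (13.6%) against 21.3%, and for the CArG box 0 of 22 against 0.749%. A member was counted if any of its windows held the motif, while the background counts single windows. Some members have more than 1 window, which can raise the members' shares, so the shares are not like for like. A match is a description of letters, not of binding.

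Between genotypes, each gene was compared as log2(TPM + 1) with limma over all 13930 tested genes, and a fitted difference below is S452A minus WT on that scale, which understates the fold change of low genes. No member passed the adjusted threshold of 0.05, while 1 of the 13930 genes did (0.00718%), and it was not a member. The direction was largely shared. Without the expression minimum, 32 of the 34 members had a fitted difference below 0, against 53.1% of all 27444 genes above 0, and their median was -0.43 against -0.01 for all these genes. At an unadjusted limma p under 0.05, again without the minimum, 9 of 34 members were lower in S452A (26.5%), against 2.2% of all genes. Of the 34, 0 were higher, against 1.74%. With the minimum, 4.74% of tested genes reached that p in either direction. Of the members, 11 of 33 were lower (33.3%), against 2.73% of tested genes, and 0 of 33 were higher, against 2.01%. A difference below 0 was found for 31 of 33, against 53.4%. Members are not independent of each other, as the correlations below show, so these counts are not separate observations. They also shrink without some single mice. At that unadjusted p there were 6 lower members without WT library 3, without WT library 4, without S452A library 3 or without S452A library 5. The shares of all genes in these fits are not given here, so a fall of the members alone cannot be told from a general one. In none of these fits did a member pass the adjusted threshold. A pseudocount of 5 in place of 1 moved the fitted differences of the low genes Mfap4, Col4a2, Col5a1, Col5a2, Lum and Acta2 to -0.70, -0.38, -0.34, -0.27, -0.22 and -0.37.

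**Figure D3:**
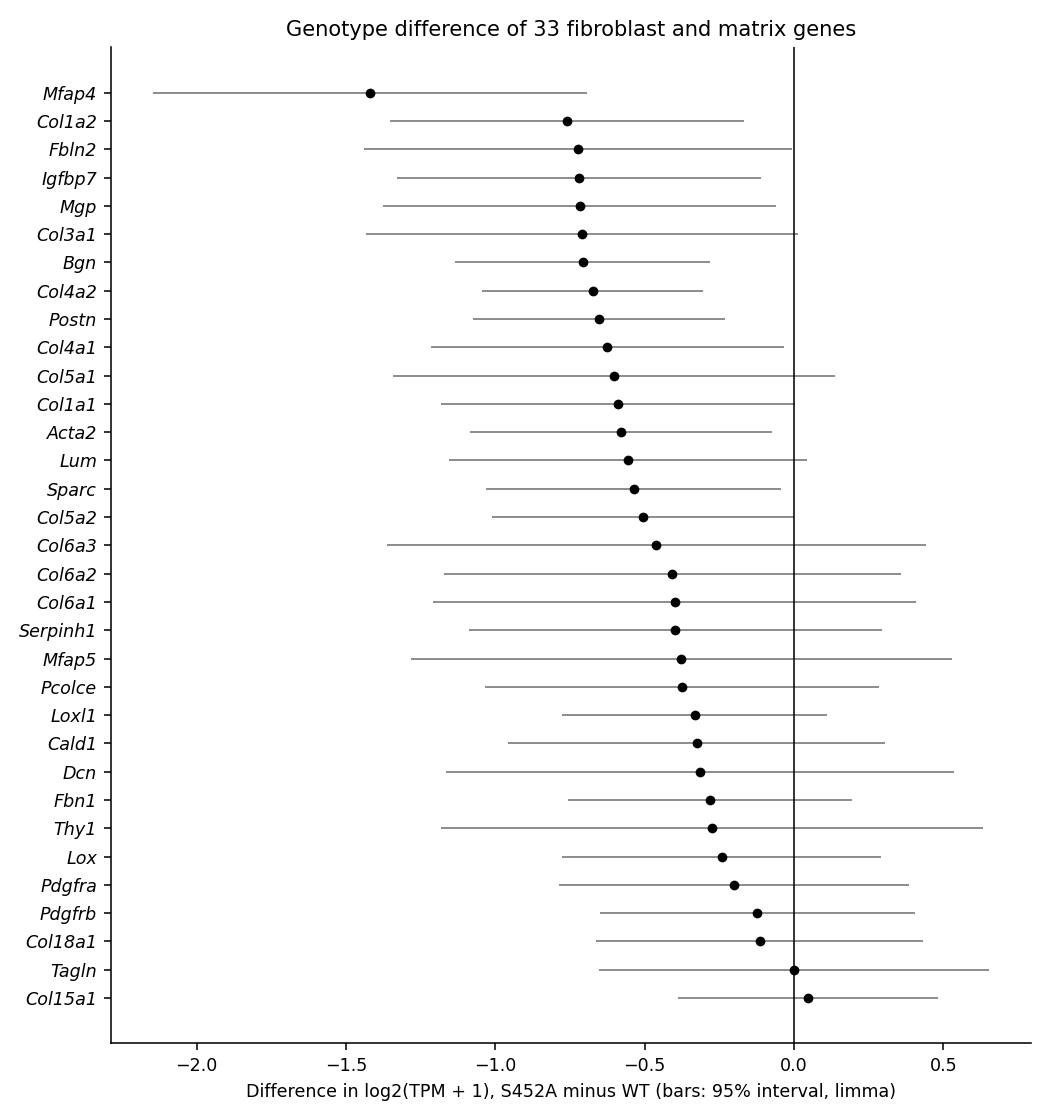
Fitted difference of each of the 33 tested genes in log2(TPM + 1), S452A minus WT (points), with 95% limma intervals (bars) from 5 libraries per genotype. Mfap4 is lowest at -1.42, 31 points lie below 0, and 22 of the 33 intervals reach above 0.

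Type I, III and V collagen chains, which form the fibrils of connective tissue, had lower means in S452A for 5 of 5 genes, and 0 of 5 passed the adjusted test. Col3a1 was at 37.5, 37.6, 80.0, 48.7 and 31.0 TPM in WT libraries 1 to 5 and at 43.6, 34.5, 11.7, 34.8 and 21.7 TPM in S452A libraries 1 to 5. WT library 3 was the highest and S452A library 3 the lowest, and the other 8 lay between 21.7 and 48.7 TPM in both genotypes. Col3a1, the type III chain, averaged 47.0 ± 19.5 TPM for WT against 29.3 ± 12.5 TPM for S452A (SD, n = 5), with a fitted difference of -0.71 (SE 0.33, limma unadjusted p = 0.0541, adjusted p = 0.952). Col1a1 was at 19.3, 21.8, 25.6, 22.9 and 10.6 TPM in WT libraries 1 to 5 and at 17.7, 11.2, 8.29, 19.6 and 9.17 TPM in S452A libraries 1 to 5. Col1a2 was at 17.9, 21.9, 29.9, 18.3 and 10.1 TPM in WT libraries 1 to 5 and at 15.9, 9.42, 6.41, 10.8 and 12.4 TPM in S452A libraries 1 to 5. Both chains of type I collagen were lowest in S452A library 3 and highest in WT library 3, but WT library 5, at 10.6 and 10.1 TPM, lay within the S452A range for each. Col1a2 had a fitted difference of -0.76 (SE 0.27, limma unadjusted p = 0.016, adjusted p = 0.952) and Col1a1 one of -0.59 (SE 0.27, limma unadjusted p = 0.0511, adjusted p = 0.952). The type I trimer holds more of the Col1a1 chain than of the Col1a2 chain, and the TPM ratio of Col1a1 to Col1a2 was 1.04 ± 0.143 for WT against 1.23 ± 0.387 for S452A (SD, n = 5). Col5a1 was at 6.56, 8.70, 10.2, 6.45 and 7.62 TPM in WT libraries 1 to 5 and at 11.3, 7.67, 2.28, 4.49 and 2.39 TPM in S452A libraries 1 to 5. Col5a2 was at 3.83, 5.31, 6.31, 5.34 and 3.58 TPM in WT libraries 1 to 5 and at 2.73, 4.92, 1.69, 3.95 and 2.81 TPM in S452A libraries 1 to 5. These type V chains, which set the diameter of collagen fibrils, overlapped between genotypes, and Col5a1 was highest in S452A library 1. Their fitted differences were -0.60 and -0.51 (limma adjusted p = 0.952 for each). Without S452A library 3 Col3a1 and Col5a1 had fitted differences of -0.43 and -0.40. A small RNA gene, Gm47302, lies on 141 exonic bases of Col3a1 on the same strand and was listed between 0 and 104 TPM, so reads of this stretch can go to either gene.

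Type IV collagen, the scaffold of basement membranes, gave the only member whose genotypes did not overlap. Col4a2 was at 6.26, 5.41, 6.01, 4.72 and 5.33 TPM in WT libraries 1 to 5 and at 4.08, 3.38, 2.26, 2.60 and 3.37 TPM in S452A libraries 1 to 5. Every WT library was above every S452A library, which was so for 52 of the 13930 tested genes (0.373%, WT above). Col4a2 averaged 5.55 ± 0.607 TPM for WT against 3.14 ± 0.718 TPM for S452A (SD, n = 5), with a fitted difference of -0.67 (SE 0.17, limma unadjusted p = 0.00182, adjusted p = 0.9). Col4a1 was at 11.9, 3.88, 12.5, 8.42 and 10.2 TPM in WT libraries 1 to 5 and at 4.08, 6.99, 5.82, 6.42 and 4.04 TPM in S452A libraries 1 to 5. Col4a1, the partner chain, was high in 4 WT libraries, while WT library 2 was the lowest of the 10. Its fitted difference was -0.62 (SE 0.27, limma unadjusted p = 0.0402, adjusted p = 0.952). Col4a1 and Col4a2 start from opposite strands of chromosome 8 (GRCm38, 11198423 to 11312826 and 11312805 to 11449287 in GENCODE M21) and share 22 exonic bases. Col15a1 and Col18a1, whose carboxy-terminal parts can be released as inhibitors of vessel growth, had fitted differences of 0.05 and -0.12, with ranges of 4.53 to 9.95 and 3.43 to 9.22 TPM over all libraries.

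The 3 chains of type VI collagen, a beaded filament network around cells, were among the more abundant members, and none was at an unadjusted p under 0.05 between genotypes. Col6a1 was at 43.6, 33.3, 68.0, 43.9 and 59.8 TPM in WT libraries 1 to 5 and at 65.4, 68.6, 14.6, 37.6 and 24.9 TPM in S452A libraries 1 to 5. Col6a2 was at 40.2, 28.2, 66.4, 48.5 and 57.7 TPM in WT libraries 1 to 5 and at 60.3, 61.1, 16.6, 35.6 and 22.5 TPM in S452A libraries 1 to 5. Col6a3 was at 20.6, 18.9, 47.6, 37.0 and 25.5 TPM in WT libraries 1 to 5 and at 42.5, 39.1, 7.86, 17.4 and 14.0 TPM in S452A libraries 1 to 5. S452A libraries 1 and 2 were above all WT libraries except library 3, which S452A library 2 exceeded for Col6a1, and S452A libraries 3 and 5 were the lowest of all 10, for each of the 3 chains. Fitted differences were -0.40, -0.41 and -0.46 (limma adjusted p of at least 0.952), and without S452A library 3 they were -0.09, -0.15 and -0.15. Without S452A library 1 they were -0.61, -0.60 and -0.72. The TPM ratio of Col6a1 to Col6a2 stayed between 0.88 and 1.18 in all 10 libraries, whereas that of Col6a1 to Col1a1 ranged from 1.53 to 6.15.

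Among the small leucine-rich proteoglycans, which bind collagen fibrils, Bgn and Dcn behaved unlike each other. Bgn was at 28.6, 26.3, 39.9, 28.4 and 19.8 TPM in WT libraries 1 to 5 and at 17.4, 17.2, 11.6, 22.8 and 16.4 TPM in S452A libraries 1 to 5. Bgn, biglycan, was at 26.3 TPM or more in 4 WT libraries and at 22.8 TPM or less in all S452A libraries, with WT library 5 at 19.8 TPM inside the S452A range. It averaged 28.6 ± 7.26 TPM for WT against 17.1 ± 3.96 TPM for S452A (SD, n = 5), with a fitted difference of -0.71 (SE 0.20, limma unadjusted p = 0.00352, adjusted p = 0.952). Dcn was at 60.5, 41.4, 130.3, 81.7 and 79.2 TPM in WT libraries 1 to 5 and at 80.8, 136, 26.9, 47.1 and 49.5 TPM in S452A libraries 1 to 5. Dcn, decorin, was highest in S452A library 2 and lowest in S452A library 3, so the S452A range enclosed the WT range. Dcn had a fitted difference of -0.32 (SE 0.39, limma unadjusted p = 0.435, adjusted p = 0.958), and leaving out S452A library 3 moved it to -0.04, leaving out S452A library 2 to -0.62. Lum was at 2.17, 1.46, 3.24, 3.18 and 1.43 TPM in WT libraries 1 to 5 and at 1.34, 1.39, 0.270, 2.16 and 1.18 TPM in S452A libraries 1 to 5. Lum, lumican, stayed at 3.24 TPM or less throughout and had a fitted difference of -0.56 (SE 0.27, limma unadjusted p = 0.0657, adjusted p = 0.952), or -0.36 without S452A library 3.

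Both matricellular proteins, secreted regulators of the matrix, were among the members at an unadjusted p under 0.05. Postn was at 48.6, 35.5, 46.1, 32.2 and 29.7 TPM in WT libraries 1 to 5 and at 18.2, 25.5, 17.9, 26.2 and 33.4 TPM in S452A libraries 1 to 5. Postn, periostin, was at 29.7 TPM or more in all WT libraries, and of the S452A libraries only library 5 reached that level. It averaged 38.4 ± 8.46 TPM for WT against 24.2 ± 6.43 TPM for S452A (SD, n = 5), with a fitted difference of -0.65 (SE 0.19, limma unadjusted p = 0.00543, adjusted p = 0.952). Sparc was at 85.6, 84.0, 129, 92.1 and 75.7 TPM in WT libraries 1 to 5 and at 68.9, 97.7, 35.6, 65.1 and 62.8 TPM in S452A libraries 1 to 5. Sparc, a collagen-binding glycoprotein, was lowest in S452A library 3 and highest in WT library 3, and S452A library 2 exceeded 4 WT libraries. Sparc had a fitted difference of -0.54 (SE 0.23, limma unadjusted p = 0.0356, adjusted p = 0.952), and -0.34 without S452A library 3.

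Of the 5 microfibril and elastic fibre genes, 5 had lower means in S452A and Mfap4 had the largest fitted difference of all 33 members. Mfap4 was at 3.45, 8.10, 9.70, 4.39 and 2.22 TPM in WT libraries 1 to 5 and at 0.850, 1.07, 0.630, 2.30 and 1.65 TPM in S452A libraries 1 to 5. Mfap4, a microfibril-associated glycoprotein, overlapped only by S452A library 4 and WT library 5, at 2.30 and 2.22 TPM. It averaged 5.57 ± 3.18 TPM for WT against 1.3 ± 0.676 TPM for S452A (SD, n = 5), with a fitted difference of -1.42 (SE 0.33, limma unadjusted p = 0.00108, adjusted p = 0.847) and a 95% interval of -2.15 to -0.69. Mfap4 shares 89 exonic bases with Mapk7 on the opposite strand, which averaged 14.8 TPM and had a fitted difference of -0.08, and the strand setting of the counting is not given in the sources used here. Fbln2, fibulin 2, ranged from 5.97 to 16.1 TPM in WT and from 3.61 to 14.6 TPM in S452A, with a fitted difference of -0.72. Mfap5, another microfibril protein, and Fbn1, the microfibril backbone fibrillin 1, had fitted differences of -0.38 and -0.28. Fbln1 ranged from 0.09 to 1.15 TPM.

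The enzymes and helpers that process collagen had fitted differences of -0.40 to -0.24 for 4 of 4 genes, all with a limma adjusted p of at least 0.952. Serpinh1 was at 98.9, 100.2, 222, 142 and 150.1 TPM in WT libraries 1 to 5 and at 132, 184, 50.5, 118 and 80.5 TPM in S452A libraries 1 to 5. Serpinh1, the collagen chaperone HSP47 of the endoplasmic reticulum, was the most abundant member in every library, and S452A library 2 was exceeded only by WT library 3. Serpinh1 had a fitted difference of -0.40 (SE 0.32, limma unadjusted p = 0.234, adjusted p = 0.952), and leaving out S452A library 3 moved it to -0.14, leaving out S452A library 2 to -0.60. The TPM ratio of Serpinh1 to Col3a1 was between 2.63 and 5.32. Pcolce, an enhancer of the cleavage of procollagen, ranged from 33.2 to 48.7 TPM in WT and from 13.5 to 59.6 TPM in S452A. The lysyl oxidase genes Lox and Loxl1, whose products cross-link collagen and elastin, had WT means of 2.45 and 1.25 TPM, against S452A means of 1.89 and 0.81 TPM.

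The secreted modulators Igfbp7 and Mgp were each at an unadjusted p under 0.05. Igfbp7 was at 27.4, 24.8, 36.4, 27.4 and 21.4 TPM in WT libraries 1 to 5 and at 6.93, 23.8, 17.5, 23.8 and 14.9 TPM in S452A libraries 1 to 5. Igfbp7, an insulin-like growth factor binding protein also made by endothelial cells, was lowest in S452A library 1, and S452A libraries 2 and 4 lay within the WT range. Igfbp7 had a fitted difference of -0.72 (SE 0.28, limma unadjusted p = 0.024, adjusted p = 0.952), and -0.45 without S452A library 1. It shares 85 exonic bases with Polr2b on the opposite strand, which averaged 15.8 TPM and had a fitted difference of 0.13. Mgp was at 16.4, 9.08, 15.2, 24.0 and 9.95 TPM in WT libraries 1 to 5 and at 6.92, 16.9, 8.30, 5.63 and 6.41 TPM in S452A libraries 1 to 5. Mgp, an inhibitor of calcification, was at 8.30 TPM or less in 4 S452A libraries, below all WT libraries, and at 16.9 TPM in S452A library 2. Its fitted difference was -0.72 (SE 0.30, limma unadjusted p = 0.0347, adjusted p = 0.952).

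The contractile genes were unlike each other. Acta2 was at 4.90, 10.2, 5.81, 11.3 and 5.49 TPM in WT libraries 1 to 5 and at 5.31, 5.21, 3.35, 4.66 and 3.98 TPM in S452A libraries 1 to 5. Acta2, smooth muscle actin and a marker of myofibroblasts and pericytes, stood at 10.2 and 11.3 TPM in WT libraries 2 and 4 and was otherwise between 3.35 and 5.81 TPM. Acta2 had a fitted difference of -0.58 (SE 0.23, limma unadjusted p = 0.0278, adjusted p = 0.952). Tagln was at 8.92, 6.76, 13.8, 10.8 and 3.01 TPM in WT libraries 1 to 5 and at 5.90, 8.78, 7.74, 9.76 and 7.53 TPM in S452A libraries 1 to 5. Tagln, transgelin, varied within WT from 3.01 to 13.8 TPM, which enclosed the S452A range, and had a fitted difference of 0.00. It shares 1241 exonic bases with the antisense gene Gm48529, at 1.77 TPM on average. Another 108 are shared with Pcsk7 on the opposite strand, at 12.0 TPM on average. Cald1 was at 49.0, 47.4, 66.5, 56.5 and 59.5 TPM in WT libraries 1 to 5 and at 56.1, 84.6, 20.5, 46.2 and 35.9 TPM in S452A libraries 1 to 5. Cald1, the actin-binding protein caldesmon, was highest in S452A library 2 and lowest in S452A library 3. Cald1 had a fitted difference of -0.33 (SE 0.29, limma unadjusted p = 0.281, adjusted p = 0.952), and leaving out S452A library 3 moved it to -0.06, leaving out S452A library 2 to -0.56.

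Receptors and surface markers gave no member at an unadjusted p under 0.05. Pdgfra was at 2.12, 3.10, 4.43, 2.40 and 4.42 TPM in WT libraries 1 to 5 and at 3.56, 4.61, 1.23, 2.28 and 2.41 TPM in S452A libraries 1 to 5. Pdgfrb was at 1.94, 1.37, 3.61, 2.53 and 2.41 TPM in WT libraries 1 to 5 and at 2.22, 3.43, 1.13, 2.09 and 1.69 TPM in S452A libraries 1 to 5. Both receptors for platelet-derived growth factors stayed at 4.61 TPM or less, with Pdgfra marking fibroblasts and Pdgfrb fibroblasts and pericytes. Their fitted differences were -0.20 and -0.12 (limma adjusted p = 0.961 and 0.97), and without S452A library 3 they were -0.02 and 0.0034. Thy1 was at 29.6, 14.1, 44.5, 33.3 and 14.7 TPM in WT libraries 1 to 5 and at 8.88, 15.2, 48.4, 18.5 and 27.2 TPM in S452A libraries 1 to 5. Thy1 was highest in S452A library 3, the library where 25 of the 34 members were lowest. Its fitted difference was -0.27 (SE 0.42, limma unadjusted p = 0.522, adjusted p = 0.961), and leaving out S452A library 1 moved it to 0.0017, leaving out S452A library 3 to -0.58. The ligand genes Pdgfa, Pdgfb and Pdgfc had fitted differences of -0.12, -0.002 and -0.008.

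The members moved together from mouse to mouse, to unequal degrees. Over the 528 pairs of the 33 genes, Pearson r of log2(TPM + 1) over the 10 libraries had a median of 0.51 and ran from -0.55 to 0.98. Of these pairs, 81 had an r above 0.8 and 37 an r below 0. After removing the genotype means the median was 0.40, with 57 pairs above 0.8 and 71 below 0. All points share the fixed total of TPM, so these values are a description. The same values for pairs of other genes are not given here. The 3 collagen VI chains had a median r of 0.95 with each other, and the 5 fibrillar chains 0.77. Between these groups it was 0.62. Outside collagen VI, the 7 members closest to Col6a1 were Cald1, Serpinh1, Dcn, Pcolce, Pdgfra, Col5a1 and Pdgfrb, at 0.95, 0.94, 0.91, 0.89, 0.87, 0.87 and 0.86, and their r with Col1a1 was 0.45, 0.50, 0.31, 0.38, 0.21, 0.64 and 0.33. The 8 members closest to Col1a1 were Bgn, Col1a2, Col3a1, Lum, Loxl1, Fbn1, Lox and Mfap4, at 0.88, 0.85, 0.84, 0.82, 0.81, 0.78, 0.77 and 0.76, and their r with Col6a1 was 0.51, 0.45, 0.81, 0.62, 0.33, 0.79, 0.44 and 0.25. Col3a1 and Fbn1 were thus close to both. How many genes to list was chosen after the correlations were seen. Thy1 stood apart, with an r below 0 to 20 of the 32 other members and a median of -0.07.

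**Figure D4:**
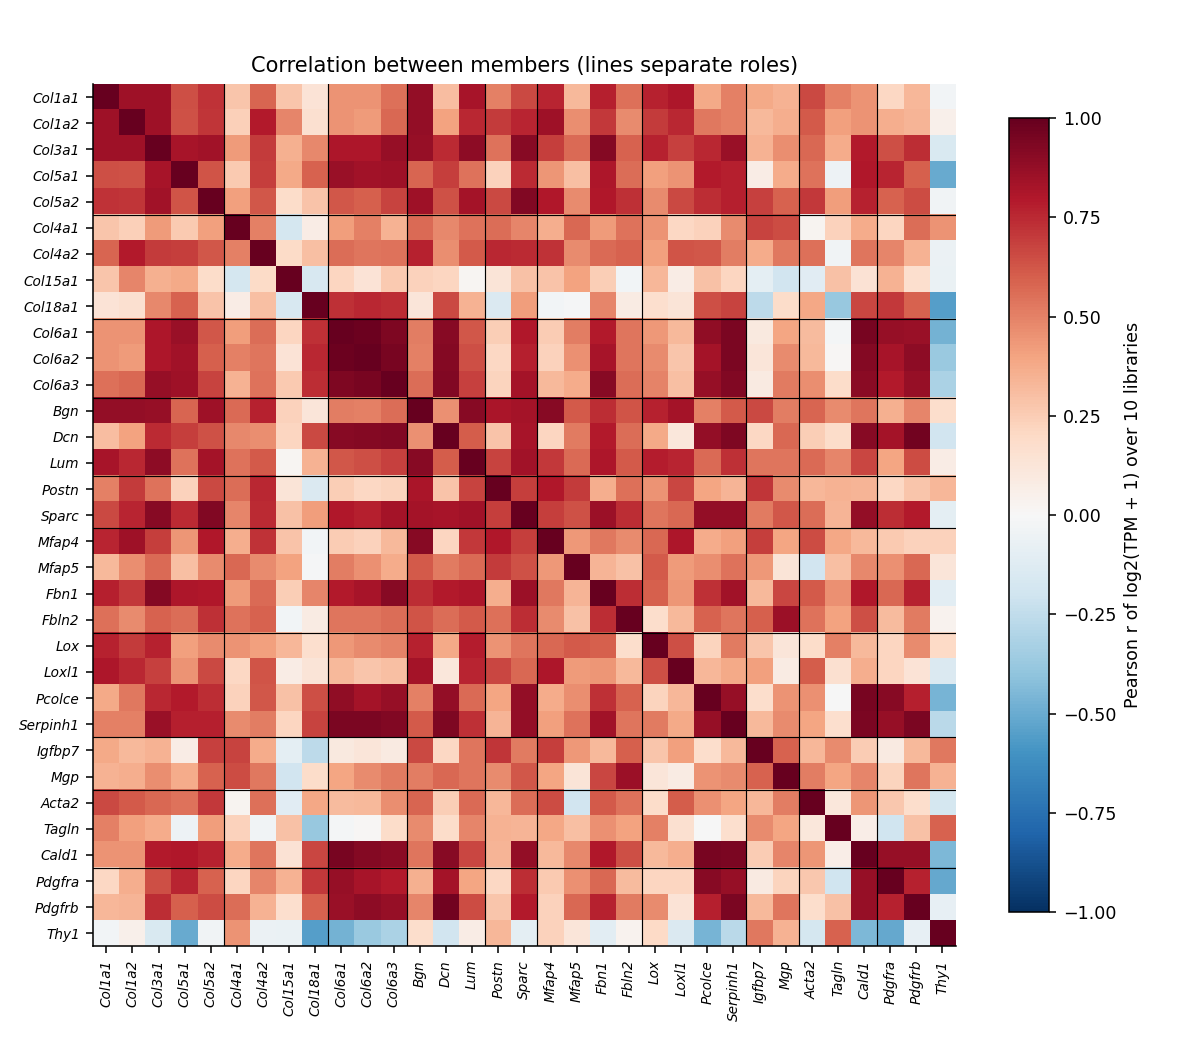
Pearson r of log2(TPM + 1) over 10 libraries between each pair of the 33 genes (colour, from -1 in blue to 1 in red), in order of role with lines between roles. The 3 collagen VI chains form a dark block and are also dark with Cald1, Serpinh1, Dcn, Pcolce, Pdgfra, Col5a1 and Pdgfrb (r of 0.86 to 0.95 with Col6a1), and the Thy1 row is mostly pale or blue.

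Correlations were tested for 10 pairs, with p-values adjusted over the 10, and 6 passed for Pearson r, of which 4 also did for Spearman rho. Col6a1 and Col6a2 gave Pearson r = 0.984 (permutation p = 2e-05, adjusted p = 0.0002) and Spearman rho = 0.988 (permutation p = 2e-05, adjusted p = 0.0002). Their r was 0.967 without the 2 libraries farthest from the median of Col6a1, so this relation does not rest on them. Col6a1 and Col6a3 gave Pearson r = 0.933 (permutation p = 0.00024, adjusted p = 0.0008) and Spearman rho = 0.939 (permutation p = 0.00023, adjusted p = 0.00115), and 0.821 without 2 libraries (permutation adjusted p = 0.0708). Col1a1 and Col1a2 gave Pearson r = 0.850 (permutation p = 0.00195, adjusted p = 0.00487) and Spearman rho = 0.842 (permutation p = 0.00371, adjusted p = 0.00927), and 0.843 without 2 libraries. Col1a1 and Col3a1 gave Pearson r = 0.845 (permutation p = 4e-05, adjusted p = 0.0002) and Spearman rho = 0.915 (permutation p = 0.00047, adjusted p = 0.00157). Without S452A libraries 3 and 5 the r was 0.692 (permutation adjusted p = 0.109). Leaving out the 2 farthest libraries narrows the range and leaves fewer samples. The fall therefore does not show whether this relation rests on them. Pdgfra and Pdgfrb, the receptor pair, gave Pearson r = 0.767 (permutation p = 0.0102, adjusted p = 0.0184) and Spearman rho = 0.709 (permutation p = 0.0273, adjusted p = 0.0547). That r was 0.524 without S452A libraries 2 and 3 (adjusted p = 0.263) and did not pass without S452A library 3 alone (r = 0.64, adjusted p = 0.116).

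Thy1 varied with a T cell gene. Thy1 and Cd3e, which encodes a CD3 chain, gave Pearson r = 0.767 (permutation p = 0.011, adjusted p = 0.0184) and Spearman rho = 0.685 (permutation p = 0.0363, adjusted p = 0.0605), with 0.791 without 2 libraries (adjusted p = 0.0708). Cd3e was at 6.79, 1.87, 3.96, 3.54 and 0.110 TPM in WT libraries 1 to 5 and at 1.37, 0.990, 5.20, 1.26 and 4.10 TPM in S452A libraries 1 to 5. The 5 libraries highest in Thy1 were also the 5 highest in Cd3e, and the relation did not pass without S452A library 3 alone (r = 0.73, adjusted p = 0.0547).

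The remaining 4 pairs did not pass. Col4a1 and Col4a2, neighbours that start from a shared stretch, gave Pearson r = 0.502 (permutation p = 0.138, adjusted p = 0.153) and Spearman rho = 0.515 (permutation p = 0.133, adjusted p = 0.19). After removing the genotype means their r was -0.0486, and WT library 2 was high in Col4a2 for its Col4a1 level. Without WT library 2 the r was 0.72 (permutation adjusted p = 0.0484). That value keeps the genotype means, which were higher in WT for both genes. Among the S452A libraries, library 1 was the highest in Col4a2 (4.08 TPM) but below libraries 2, 3 and 4 in Col4a1 (4.08 TPM). Acta2 and Tagln, both genes of smooth muscle and myofibroblasts, gave Pearson r = 0.114 (permutation p = 0.741, adjusted p = 0.741) and Spearman rho = 0.103 (permutation p = 0.785, adjusted p = 0.785). Col5a1 and Col5a2 gave Pearson r = 0.632 (permutation p = 0.0509, adjusted p = 0.0727) and Spearman rho = 0.370 (permutation p = 0.297, adjusted p = 0.33), and Dcn and Lum gave Pearson r = 0.605 (permutation p = 0.0602, adjusted p = 0.0752) and Spearman rho = 0.394 (permutation p = 0.264, adjusted p = 0.33). Without 2 libraries these 4 values were 0.132, -0.0359, -0.0117 and 0.552. Without S452A library 1 Col5a1 and Col5a2 passed (r = 0.88, permutation adjusted p = 0.0043), and without S452A library 2 Dcn and Lum did (r = 0.76, permutation adjusted p = 0.0337).

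**Figure D5:**
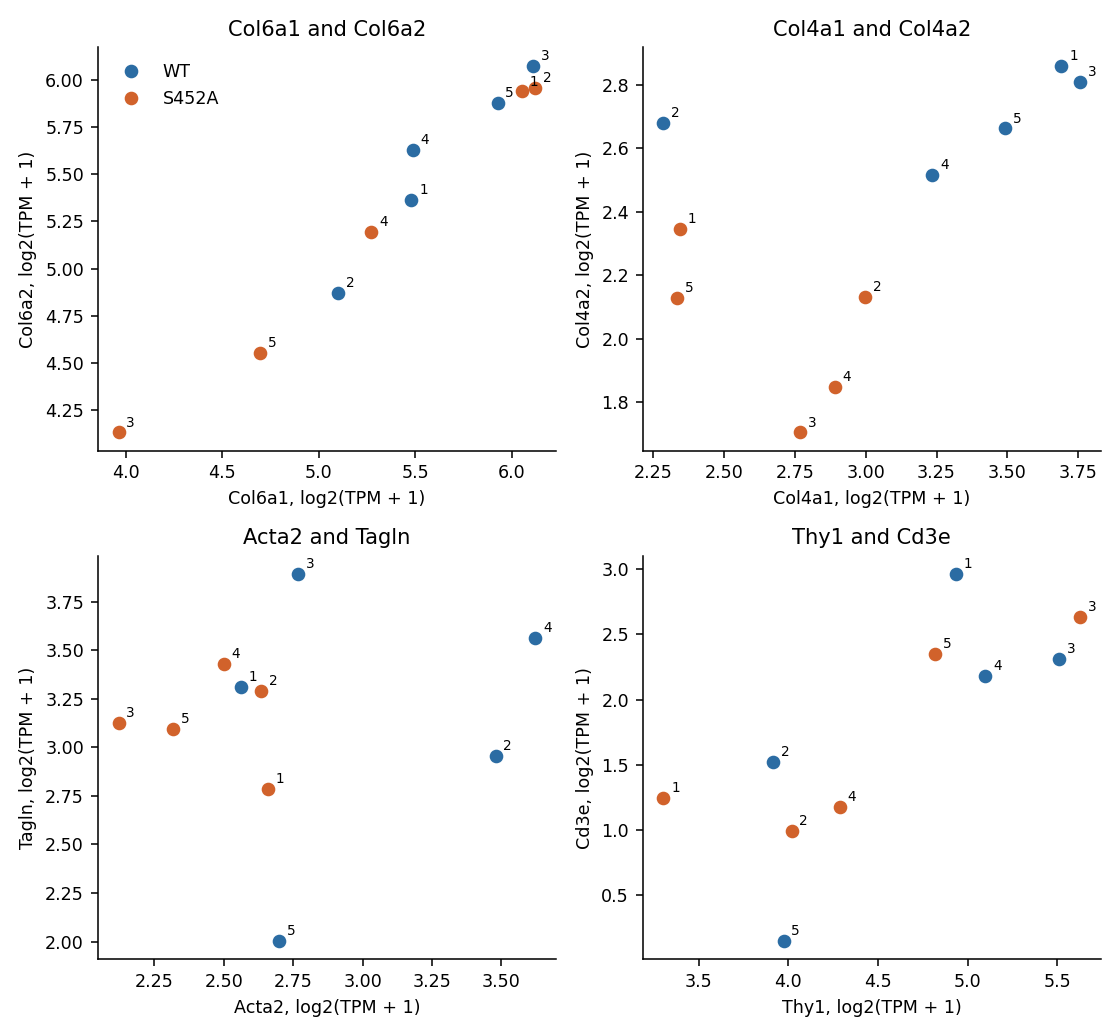
Log2(TPM + 1) of 4 gene pairs in the 10 libraries (WT blue, S452A orange, numbers are the library numbers). Col6a1 and Col6a2 lie on a line (r = 0.98), Thy1 and Cd3e rise together (r = 0.77), WT library 2 stands off the other WT libraries for Col4a1 and Col4a2 (r = 0.50), and Acta2 and Tagln show no line (r = 0.11).

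Other genes of the matrix were examined through 5 lists of 139 genes, of which 138 were above 0 in at least 1 library. None passed the adjusted limma test, with or without the expression minimum. Without the minimum, the fitted difference was below 0 for 102 and above 0 for 36, where 53.1% of all genes were below 0. At an unadjusted limma p under 0.05, 12 of the 138 were lower (8.70%, against 2.2% of all genes) and 2 were higher (1.45%, against 1.74%). For 7 of the 138 (5.07%, against 0.284% of all genes) every WT library was above every S452A library, and for 0 it was the reverse, against 0.189%. Those 7 were Ccn2, Igfbp3, Aspn, Plod3, Loxl2, Col12a1 and Col8a1. The minimum left 98 of the 138, of which 70 were at 1 TPM or more in all 10 libraries, 20 reached 1 TPM in more WT than S452A libraries and 7 in more S452A than WT libraries. Col8a1, Aspn, Loxl2, Col12a1 and Ccn2 were among the 20, so they met the minimum through more WT than S452A libraries, and were high in WT.

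Ccn2 was at 3.38, 3.64, 5.35, 3.40 and 3.04 TPM in WT libraries 1 to 5 and at 1.04, 2.15, 0.950, 2.29 and 1.60 TPM in S452A libraries 1 to 5. Ccn2, connective tissue growth factor, a matricellular protein, averaged 3.76 ± 0.913 TPM for WT against 1.61 ± 0.615 TPM for S452A (SD, n = 5), with a fitted difference of -0.88 (SE 0.22, limma unadjusted p = 0.0014, adjusted p = 0.847). Igfbp3 was at 6.76, 5.35, 7.30, 5.04 and 5.75 TPM in WT libraries 1 to 5 and at 1.47, 3.97, 3.34, 3.83 and 3.91 TPM in S452A libraries 1 to 5. Igfbp3, the main carrier of insulin-like growth factors, had a fitted difference of -0.74 (SE 0.22, limma unadjusted p = 0.00479, adjusted p = 0.952), and Aspn, the proteoglycan asporin, one of -0.67 (SE 0.20, limma unadjusted p = 0.00603, adjusted p = 0.952). Plod3 was at 43.4, 41.9, 48.7, 43.8 and 40.0 TPM in WT libraries 1 to 5 and at 36.1, 37.5, 26.0, 31.4 and 22.5 TPM in S452A libraries 1 to 5. Plod3, a lysyl hydroxylase of collagen, was thus separated between genotypes at a level of 22.5 to 48.7 TPM, with a fitted difference of -0.51 (SE 0.14, limma unadjusted p = 0.00374, adjusted p = 0.952). Loxl2, another lysyl oxidase, had a fitted difference of -0.54 and Sec31a, a coat protein of vesicles that leave the endoplasmic reticulum, one of -0.38. Col12a1 and Col8a1, further collagen chains, had fitted differences of -0.62 and -0.65, and Col14a1 one of -0.36.

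By list and without the minimum, 9 of 9 further collagens and 20 of 25 genes of collagen synthesis, folding and cross-linking had fitted differences below 0, with medians of -0.20 and -0.13. So did 37 of 51 matrix glycoproteins and proteoglycans (median -0.14), 10 of 17 basement membrane genes (-0.02) and 26 of 36 genes of fibroblast identity and activation (-0.22). The median over all genes was -0.01. The fibroblast list held genes in both directions, and its summed TPM was higher in S452A on average. It was 4364 to 5270 TPM in WT and 5231 to 6999 TPM in S452A, with Vim the largest part. Vim, the intermediate filament vimentin, also abundant in macrophages, averaged 2976 ± 364 TPM for WT against 3907 ± 687 TPM for S452A (SD, n = 5), with a fitted difference of 0.38 (SE 0.13, limma unadjusted p = 0.0116, adjusted p = 0.952). Inhba, the activin A subunit, had one of 0.63 (SE 0.22, limma unadjusted p = 0.0149, adjusted p = 0.952), and Pi16, a marker of resting fibroblasts, one of -0.65 (SE 0.27, limma unadjusted p = 0.0307, adjusted p = 0.952). For TGF-beta ligands, receptors and targets 11 of 21 were below 0 (median -0.02), for pericyte and smooth muscle genes 12 of 17 (-0.12), for endothelial genes 15 of 20 (-0.18), for epithelial genes 5 of 14 (0.05), for T cell genes 6 of 16 (0.04) and for macrophage genes 8 of 16 (-0.001). At an unadjusted limma p under 0.05, 3 of 17 pericyte and smooth muscle genes (17.6%) and 2 of 20 endothelial genes (10%) were lower, against 2.2% of all genes. Of 14 epithelial genes, 1 was higher (7.14%, against 1.74%). With the minimum, 1 pericyte and smooth muscle gene and 0 endothelial genes were lower, and 0 epithelial genes were higher. Every WT library was above every S452A library for 2 of 17 pericyte and smooth muscle genes (11.8%, against 0.284% of all genes). They were Abcc9 and Myh11, which reached at most 0.45 and 0.42 TPM. The muscle intermediate filament gene Des, with the smallest p of the tested genes of that list, had a fitted difference of -0.78.

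The genes outside the list whose level was most like the summed TPM of the 33 members were, in order, Cd34, Wwtr1, Pdia4, Dsn1, Fkbp9, Fkbp10, Maged1, Phgdh, Vegfc and Cct7. Their Pearson r over the 10 libraries was 0.98 for Cd34 and 0.94 for Cct7, with a median of 0.08 over 13897 other tested genes and 83 genes above 0.9. Cd34 was at 14.6, 12.7, 20.6, 15.2 and 15.4 TPM in WT libraries 1 to 5 and at 16.4, 19.8, 7.44, 12.5 and 10.1 TPM in S452A libraries 1 to 5. Cd34 is a surface sialomucin of fibroblast precursors and endothelium and a member of the fibroblast list above. Wwtr1 was at 6.48, 5.24, 10.03, 6.69 and 7.08 TPM in WT libraries 1 to 5 and at 7.65, 8.70, 2.63, 5.67 and 4.75 TPM in S452A libraries 1 to 5. Wwtr1 encodes the transcriptional coactivator TAZ. Pdia4 is a protein disulfide isomerase, Fkbp9 and Fkbp10 are prolyl isomerases of the endoplasmic reticulum, and Vegfc is a growth factor of lymphatic vessels. The functions of Dsn1, Maged1, Phgdh and Cct7 are left out here. Which cells supplied the transcripts of any of the 10 genes was not tested. The fitted differences of these 10 genes between genotypes ran from -0.55 for Vegfc to -0.15 for Cct7, and none passed the adjusted limma test.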

How the data were processed

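Strand-marked libraries were prepared from 40 ng of RNA, per the labels' protocols. Per the submitters' processing notes, STAR 2.7.9a, RSEM 1.3.0 and the mouse build GRCm38.p6 were used; annotation release and settings: not given in the sources used here. One deposited table holds TPM, the unit in which the authors expressed all genes, so counts and depth are unknown and a rise of one class lowers the others. Columns were matched to samples by their descriptions, and all were used. Every gene reaching 1 TPM in 5 or more libraries was tested as log2(TPM + 1) with limma 3.58.1 in R 4.3.3 (trend, 2-sided, Benjamini-Hochberg over all tested genes, threshold 0.05, genotype as the only term). A 0.1 or 5 pseudocount, other filters, scalings, moderations, a rank test, covariates, the mouse number as a block and leaving out each library were alternatives. Correlations used 100000 permutations (2-sided). Other steps ran in Python 3.11.15 with scipy 1.17.1, pandas 2.3.3 and numpy 2.4.6, and the fit was tested on simulated data.

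The labels number separate mice, so p-values measure the spread between them. Members, lists and tests were chosen with earlier results of these data known. Per-library values are given for the 6 members of highest mean, the 8 of smallest unadjusted p and the genes of the 10 correlated pairs. Of other genes, up to 3 per list with the smallest p and the 10 most like the summed TPM are named, without predicted and clone-named genes. Genes named for a level at or near 0 and the number of members listed by their r with Col6a1 or Col1a1 were chosen after their values were seen, as was the count of the other lists without the minimum. The Postn promoter window was likewise chosen for its TATA box. Gene positions came from GENCODE M21 (GRCm38), to which 34 of 34 members matched, and promoter sequences from RefSeq (GRCm38.p6). No other transcript of at least 95% identity over 0.8 of the shorter one was found for a member except Gm47302 for Col3a1.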

Additional observations from a re-analysis of the deposited data

Results flagged for a closer look

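In 70 groups of 5 libraries (34 members and their summed share, in each genotype), 2 held a library whose gap to its nearest neighbour was above 0.71 of the group's range, which chance gives in about 1 of 20 groups. The share flagged, 2 of 70, was below that rate. Both flags were in S452A library 2. Fbln2 was at 14.55 TPM there and at 3.61 to 5.70 TPM in the other S452A libraries, a gap of 0.81 of the range. Mgp was at 16.85 TPM there and at 5.63 to 8.30 TPM in the others, a gap of 0.76. Over the 10 libraries these genes were each other's closest partners among the members (r = 0.86). That r includes S452A library 2, so it is not separate from the flags.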

How the results depend on the processing

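No alternative gave a member past the adjusted threshold (0 in 26 fits, a threshold of 0.1 included). The count over all genes was 1, but 0 with a minimum of 1 TPM in all 10 libraries, 0 with 5 TPM in 5 libraries (565 and 460 genes at an unadjusted p under 0.05) and 0 with the exact Wilcoxon test (445). Leaving out 1 library kept it at 1 and the members at 0. The median member difference stayed below 0 (-0.62 to -0.33 leaving out 1 library), as did the share difference (-0.029 to -0.012 percentage points). The median pairwise r was 0.39 to 0.58, alternatives added after seeing the data. With the mouse number as a replicate block, 1 gene and 0 members passed, and the median stayed -0.46. Same-numbered libraries correlated at -0.15 to 0.07, so the numbers are not shown to pair mice. At an unadjusted p under 0.05 the members' count of 11 ran from 6 to 15 leaving out 1 library (15 without S452A library 2) and was 7 with the Wilcoxon test. Over all genes that count was 660, but 1271 with the endothelial covariate and 1080 without an expression minimum. The all-gene count is not given here for the fits leaving out 1 library. Of 25 members with per-library values, 22 kept their sign in every fit. Tagln turned with a pseudocount of 5 (-0.028), after rescaling without mitochondrial, histone, small RNA and immunoglobulin genes (-0.015), with the T cell covariate (-0.0024) and leaving out single libraries (-0.28 to 0.19). Thy1 turned with the endothelial covariate (0.10) and without S452A library 1 (-0.58 to 0.0017 over libraries), and Pdgfrb without S452A library 3 (-0.26 to 0.0034). Of 10 gene pairs, 6 passed and 2 did without the 2 farthest libraries, where fewer samples remain (4 to 7 leaving out 1 library). Signs turned for Col4a1 with Col4a2 (-0.049, genotype means removed), Col5a1 with Col5a2 (-0.012) and Acta2 with Tagln (-0.036, and -0.11 to 0.23 leaving out 1 library). For a turned sign the cause was not tested. TPM holds no depth, so no detection limit can be given.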
